A study of Saccharomyces cerevisiae with 24 samples.

Results

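The genes studied here were those near the ends of the Saccharomyces cerevisiae chromosomes. A gene was a member if its midpoint lay within 25 kb of position 0 or of the last annotated position of its chromosome. Chromosomes V and XII, which one of the strains carries joined in a translocation, were left out, as were the mitochondrial genome and the 2-micron plasmid. The rule used positions only and no measured value. It gave 350 members of 6664 genes, spread over 28 ends of 14 chromosomes with 7 to 18 genes at each end. Of the members, 189 carried a gene name, 93 had only a systematic name and 68 were dubious reading frames. The last gene inside the window was ELP6 at 24.986 kb from the right end of chromosome XIII, and the first outside it was IMA5 at 25.214 kb from the left end of chromosome X.

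Poly(A)-selected, strand-specific RNA was sequenced from diploid cells of the mother enrichment programme grown in rich glucose medium (YPD). In such strains a recombinase made in daughter cells inactivates genes that daughters need in order to divide, so that mother cells can be aged in culture and then collected. Log-phase cultures (log) were compared with mother cells aged 24 h or 48 h, across 24 libraries; the authors deposited 3 tables and scaled each on its own. The mus81 table held wild type and mus81 mutant diploids, with 2 libraries each of log, 24 h and 48 h cells; Mus81 is a subunit of a nuclease that cuts branched DNA. The hst3 hst4 table held hst3 hst4 diploids, which lack both deacetylases of a core lysine of histone H3, with 2 log and 2 aged libraries, and wild type with 1 of each. There the titles give 48 h and the age label 24 h for the aged cells, and the genotype label reads wild type for every library, so these cells are called aged and the genotypes follow the titles. The second log and second aged hst3 hst4 libraries carry a different lane label from all other libraries of this table. Lane and library number part them alike, so a lane effect cannot be told from the spread between libraries. The difference between first and second library had a correlation of −0.015 between log and aged hst3 hst4 cells. The translocation table held a diploid with an XII<>V translocation and its control, which by its label is a/a with Tom70-GFP and ADE2, carries pGST-V-U and has no I-SceI, with 1 library each of log, 24 h and 48 h. Nothing states that libraries of a group came from separate cultures, so p-values in the mus81 and hst3 hst4 tables measure the spread between these libraries, which may be technical. No group of the translocation table has a second library. Standard errors and p-values there rest on how far single libraries depart from the sum of a strain term and an age term.

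Libraries held between 1656535 and 11330955 reads on the annotated features. The MUS81 gene had 0 to 10 reads in the 6 mus81 libraries and 39 to 161 in the 6 wild-type libraries of that table. In the hst3 hst4 libraries HST3 had 2 to 10 reads and HST4 0 to 1, against 278 and 319 and against 90 and 87 in the wild type. The members took between 1.43% and 2.06% of a library's reads. A total of 183 members (52.3%, against 6.76% of other genes) share long stretches with sequence elsewhere (178) or overlap a gene on the same strand (22). Their reads may be split or moved between copies or neighbours. Such genes are marked with an asterisk. In total RNA from a culture, fewer cells expressing a gene and less RNA per cell cannot be told apart.

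The last kilobases of a yeast chromosome carry an X element and, at some ends, 1 or more Y' elements that encode helicases. Proteins of the Sir complex, led by the deacetylase Sir2, spread inwards from the telomere repeats and can silence genes placed there. Next to these repeats lie gene families that have been copied from end to end, such as PAU (cell wall mannoproteins induced without oxygen), COS (membrane proteins that help to sort other membrane proteins for degradation) and FLO (flocculins, which make cells stick to each other). Many other subtelomeric genes serve the use of sugars other than glucose or the uptake of vitamins and metals.

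Upstream stretches of 6 members are printed because they show the short words that activators or repressors of these families are known to bind, and because they show how alike the copies are. All were read from the R64 reference, 5′ to 3′ towards the gene. In the PAU genes capitals mark TCGTTTAG or TCGTTCAG, words bound by Upc2, an activator of sterol and anaerobic genes. In PHO11 they mark CACGTG, bound by the phosphate regulator Pho4, and in ERR1 they mark AGGGG, bound by the stress regulators Msn2 and Msn4.
PAU22 (XVI:8678-8777, minus strand): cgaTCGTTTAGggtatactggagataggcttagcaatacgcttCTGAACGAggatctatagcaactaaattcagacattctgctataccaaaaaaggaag
PAU15 (IX:433669-433768, plus strand): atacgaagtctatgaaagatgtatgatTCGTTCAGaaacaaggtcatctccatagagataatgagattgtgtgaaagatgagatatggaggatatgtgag
PAU3 (III:307541-307640, plus strand): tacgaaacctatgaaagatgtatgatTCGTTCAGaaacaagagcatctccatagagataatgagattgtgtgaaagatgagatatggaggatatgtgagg
PAU6 (XIV:781658-781757, plus strand): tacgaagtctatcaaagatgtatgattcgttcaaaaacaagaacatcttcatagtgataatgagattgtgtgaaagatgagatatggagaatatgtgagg
PHO11 (I:225130-225229, plus strand): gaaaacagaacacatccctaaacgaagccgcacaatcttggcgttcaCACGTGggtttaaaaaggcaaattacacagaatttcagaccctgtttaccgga
ERR1 (XV:1079936-1080035, plus strand): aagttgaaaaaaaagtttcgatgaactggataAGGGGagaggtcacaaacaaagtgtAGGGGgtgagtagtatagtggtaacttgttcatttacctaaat

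In the 500 bases before the start codon, read on both strands, TCGTTTAG or TCGTTCAG stood before 13 of the 17 PAU members (76.5%). It stood before 6.38% of 345 members and 3.14% of 6659 genes in all. PAU6 lacks it in the stretch shown, which differs from that of PAU3 at 8 of 100 positions, but holds it further out, at position −426, and is counted among the 13. Over the whole 500 bases, set side by side without gaps, PAU3 and PAU6 differ at 117 positions. AGGGG stood before 8 of 11 COS genes, 11 of 17 PAU genes and 8 of 13 genes for the use of other carbon sources, against 30.7% of members and 33.7% of all genes. In all 8 COS genes it lies at position −29. COS1, COS2, COS3, COS5 and COS8 are 98.5% to 100% identical over the last 200 bases, so these matches are not separate cases. AGGGG stood before 39.5% of the 190 members that rose in wild type at 48 h and 20.1% of the 154 that did not, with 43.3% among the 2009 other genes that rose. CACGTG stood before both acid phosphatase genes and before 5.51% of members, against 6.01% of all genes. PHO12 has the same 100 bases as PHO11 at this place. A match is a description of these letters and not a measured binding site.

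The first question was how the chromosome ends as a whole changed as wild-type mothers aged. Most members that passed the test rose. In wild type at 48 h, 190 of the 349 members tested were higher than in log cells and 37 were lower (limma, Benjamini-Hochberg adjusted p under 0.05 across all features). Among all 6669 features tested, 33.1% were higher and 30.1% lower. The median log2 difference was 1.25 over the members and 0.15 over all features. With quantile normalization, which forces all libraries to a common distribution of values, 107 members were higher and 53 lower. With the 22 members that had no reads in one of the groups set to bounds from 3 reads over the group, the members' median was 1.18. At 24 h, 144 members were higher and 19 lower, with 24.4% and 24.2% over all features, and the members' median difference was 1.01 (67 higher and 30 lower with quantile normalization). All 28 ends had a median above 0 at both ages. The value of a gene without reads differs between libraries. It was −0.39 and −0.40 in log, −0.35 and 1.43 at 24 h and 0.20 and −0.08 at 48 h. Genes with few reads can thus differ through this value alone. In the lowest 25% of features by level, the median at 24 h was 1.51 in members and 1.19 in other genes. The part of this value in the medians of members and ends was not tested.

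Level and copy number bear on these counts. Log-phase members were mostly low: the median member had a log2 value of 3.76 and 3.84 in the wild-type log libraries, against 7.82 and 7.81 over all features. At 48 h the member medians were 5.86 and 5.58, above both log libraries. The number of members with any read was 282 to 288 in log and 335 to 336 at 48 h. All features were then split into 4 equal classes by their mean level over the table. In the lowest class 107 of 209 members rose (51.2%), against 46.4% of other genes there. In the next class 42 of 56 members rose (75.0%), against 40.0% of other genes. In the class above it 32 of 52 rose (61.5%), against 25.3%, and in the top class 9 of 32 rose and 19 fell. Among genes with a gene name, 132 of 189 members rose and 32 fell (median log2 difference 1.26), against 1351 and 1827 of 4723 other genes (median −0.13). Members that share sequence with or overlap another gene, those with an asterisk, rose in 99 of 183 cases, with a median log2 difference of 1.54. The remaining members rose in 91 of 166, with a median of 0.94.

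**Figure D1:**
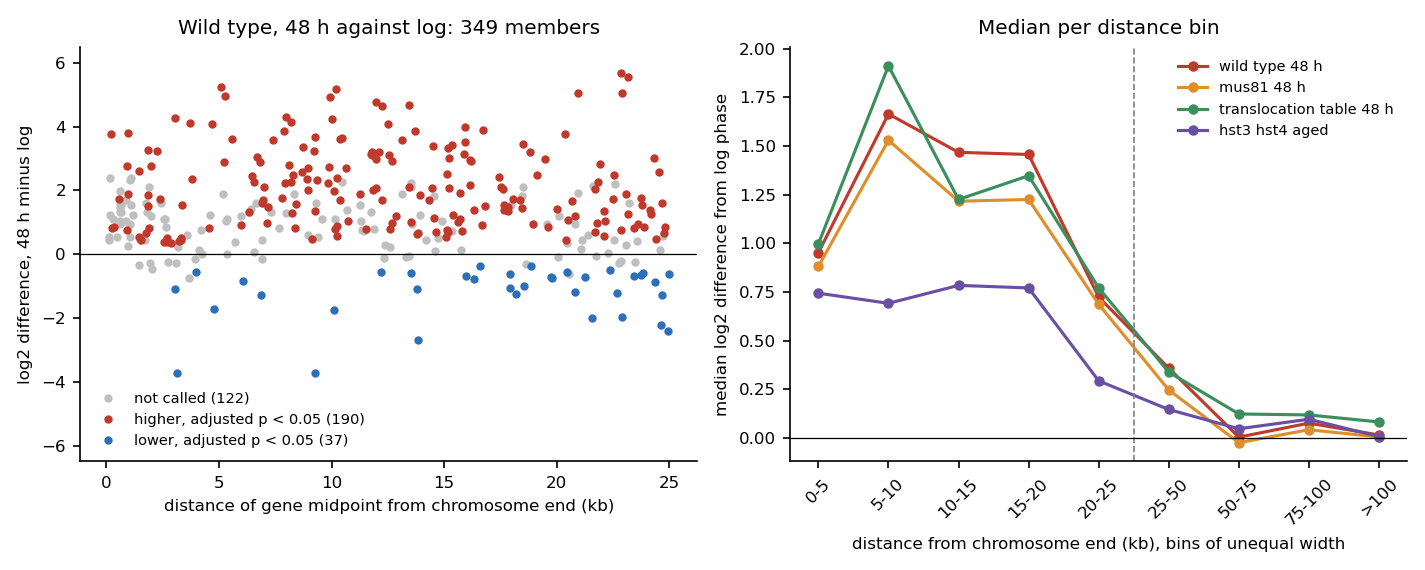
Left, log2 difference between wild type at 48 h and log phase for each of the 349 members tested, against the distance of the gene's midpoint from its chromosome end in kb; red points rose (190), blue points fell (37) and grey points passed neither test. Right, the median log2 difference per distance bin in 4 comparisons of aged with log cells, with a dashed line at the 25 kb edge; the wild-type median is 1.66 at 5 to 10 kb and 0.01 at 50 to 75 kb.

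The rise differed by distance within the window and did not run in 1 direction from the end inwards. In wild type at 48 h the median log2 difference was 0.95 within 5 kb of an end, where 32 of 83 members rose and 4 fell. It was 1.66 at 5 to 10 kb (40 of 64 rose, 3 fell), 1.47 at 10 to 15 kb (43 of 72) and 1.46 at 15 to 20 kb (39 of 56). The outermost 5 kb hold Y' helicase genes and many dubious frames with few reads. Over all members, dubious frames had a median of 1.40 and the 5 Y' helicase genes one of 0.39. Their part in the median of this bin was not tested. At 20 to 25 kb the median was 0.72, with 36 of 74 members higher and 15 lower. Outside the window on the same chromosomes it was 0.36 at 25 to 50 kb and 0.01 at 50 to 75 kb. Further in, at over 100 kb, 1247 of 4256 genes rose and 1402 fell, with a median of 0.02.

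The ends differed from each other. The right end of chromosome III had the highest median at 48 h, 1.98, and 11 of its 14 members rose. They include ADH7, an alcohol dehydrogenase (2.25), the neighbouring genes YCR099C* (2.52) and YCR100C* (2.07), and GIT1, a permease for glycerophosphoinositol (1.72). The right end of X followed with 1.82 and 9 of 11 members higher, and the left end of IV with 1.75 and 8 of 11. These 2 ends carry the same series of families: COS, MPH maltose permeases, SOR sorbitol dehydrogenases, HXT hexose transporters, THI and AAD genes. At the right end of XI all 7 members rose, from FLO10 (0.69) to VBA5, a permease with 2 reads in log and 35 at 48 h (4.11).

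The left end of XIII had the lowest median, 0.38, in wild type at 48 h. There 5 of 13 members rose and 4 fell. MSC1 (3.53) and COS3* (1.76) rose, and PHO84 (−2.40), RSC9 (−1.07), ERG13 (−0.74) and PGA3 (−0.71) fell. The left end of II followed with 0.50, where 3 of 14 members rose and 2, PKC1 and SEA4, fell. By the reference annotation 13 ends carry a Y' element and 15 only an X element. Members rose in 83 of 168 cases (median 1.17) at the ends with Y' and in 107 of 181 (median 1.32) at the ends without. The window of chromosomes V and XII, not counted among the members, had 23 of 54 genes higher, 1 lower and a median of 0.77.

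**Figure D2:**
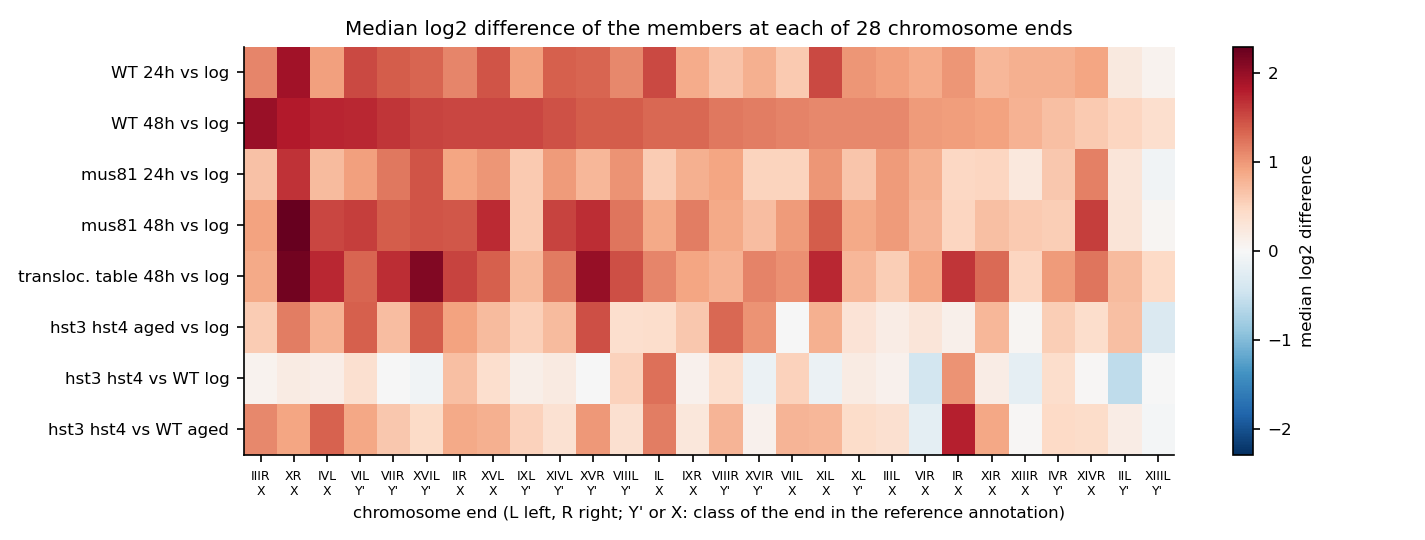
Median log2 difference of the members at each of the 28 chromosome ends (columns, ordered by wild type at 48 h, with L for left and R for right and the class of the end below) in 8 comparisons (rows). Red is higher in the group named first; the right end of III and the right end of X are the darkest in wild type at 48 h, with 1.98 and 1.82, and the left end of XIII is the palest, with 0.38.

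PAU genes, the largest family at the ends, were close to silent in log cells. Their summed reads were 75 and 56 in the wild-type log libraries, and 33 and 25 without PAU6. At 48 h both libraries held 170 PAU reads, at totals of 3020733 and 3985825 reads against 7417677 and 7575056 in log. On the log2 scale of summed scaled reads the family stood at 5.99 and 5.56 in log, 6.73 and 7.23 at 24 h and 7.76 and 7.48 at 48 h. Every aged library lay above both log libraries, and the mean at 48 h was 3.59-fold that in log.

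Among the 17 PAU genes, 14 rose at 48 h, none fell, and the median log2 difference was 2.69 (2.48 with bounds). PAU22* at the left end of XVI had log2 values of −0.24 and −0.25 in log and 4.05 and 3.77 at 48 h, a difference of 4.15 ± 0.77 (SE, 2 libraries a group; limma, adjusted p 0.00024). With 2 reads in the log libraries and 26 at 48 h, the ratio of its scaled reads was 17.7 (95% exact interval for counting error alone, 4.43 to 154.0). PAU15*, PAU16*, PAU19* and PAU21* had no read in either log library. Against a floor of 3 reads over the group, PAU19* and PAU21* were at least 8.63-fold higher at 48 h, PAU15* at least 6.36-fold and PAU16* at least 4.09-fold. These fold bounds rest on 9 to 19 reads over both 48 h libraries.

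PAU6* was among the PAU genes that did not pass. For comparison, PAU3* had log2 values of 2.08 and 0.75 in log and 3.81 and 3.53 at 48 h and rose by 2.25 ± 0.69 (SE; limma, adjusted p 0.010). PAU6*, 98.5% identical to PAU3 over the last 200 bases before the start codon, had 5.15 and 4.71 in log and 4.60 and 4.60 at 48 h. Its log2 difference of −0.34 ± 0.36 missed the threshold. The difference between these 2 genes was not tested. The PAU count depends on the scaling: with quantile normalization 4 of 17 rose at 48 h, and the family's median at 24 h turned to −0.11.

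COS genes were well measured, unlike PAU genes. The summed log2 level of the 11 COS members was 11.10 and 11.09 in log, 12.30 and 12.01 at 24 h and 12.82 and 12.63 at 48 h. All 4 aged libraries stood above both log libraries, and the mean at 48 h was 3.08-fold that in log. At 48 h 10 of 11 COS members rose and 1 fell, with a median log2 difference of 1.71. COS1* went from 7.41 and 7.66 to 10.02 and 9.81, a difference of 2.38 ± 0.17 (SE). COS2* and COS3*, whose copies cannot be told apart, rose by 1.74 and 1.76. COS10, at the right end of XIV, went the other way, from 6.95 and 7.09 to 6.10 and 5.74, a difference of −1.10 ± 0.20 (limma, adjusted p 0.00024).

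The FLO and Y' families moved less. FLO1*, a flocculin gene at the right end of I, had log2 values of 6.08 and 5.82 in log and 7.13 and 6.67 at 48 h, and rose by 0.95 ± 0.27 (SE). FLO10 rose by 0.69 ± 0.25. Neither FLO gene passed the test with quantile normalization, without the second wild-type log library or without the first 48 h library. The summed log2 level of the 5 Y' helicase genes was 11.08 and 11.21 in log and 11.53 and 11.55 at 48 h, a 1.32-fold difference. Of these, 4 passed the test (YRF1-1*, YRF1-3*, YRF1-6* and YRF1-8*), which are copies of each other and so are not separate results. Without the first wild-type log library 1 passed.

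**Figure D3:**
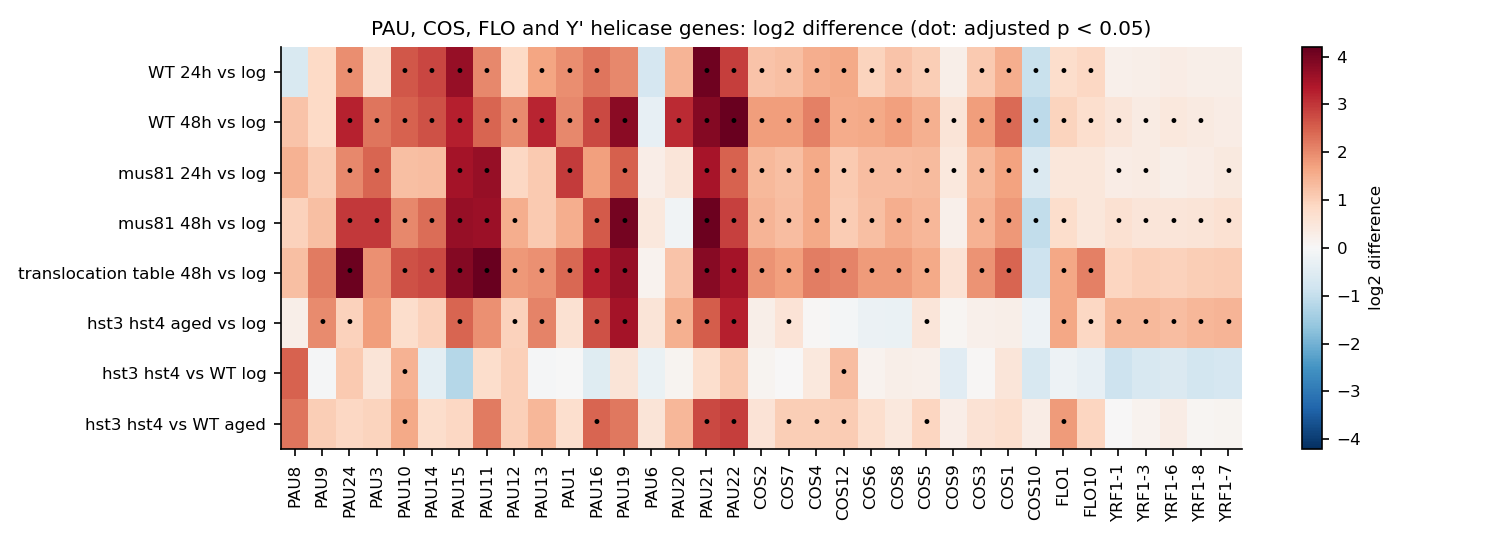
Log2 difference of each PAU, COS, FLO and Y' helicase gene (columns) in 8 comparisons (rows); a dot marks an adjusted p under 0.05. In the aged cells of the mus81 and translocation tables most PAU and COS genes are red, with COS10 blue and PAU6 pale, while in hst3 hst4 cells with age the COS genes are pale and the Y' genes are red.

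Most genes for the use of sugars and other carbon sources rose in wild type at 48 h. All 12 maltose and isomaltose genes passed the test, with a median log2 difference of 1.58, and 5 did with quantile normalization. MAL31, a maltose permease, went from 4.93 and 5.68 to 7.68 and 7.40 (difference 2.23 ± 0.25, SE). Of 13 genes for other carbon sources 12 rose, with a median of 3.25, and ADH4 (0.12) did not pass; with quantile normalization 8 rose. JEN1, the lactate permease, went from 1.76 and 3.07 in log to 7.98 and 7.95 at 48 h. That is a difference of 5.55 ± 0.34, and the 24 h libraries at 6.97 and 6.91 lay between.

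STL1, a glycerol symporter, and the enolase-related genes ERR1*, ERR2* and ERR3* rose by 5.69, 4.92, 5.18 and 4.27. Most of these had almost no reads in log cells: STL1 had 1 read over both log libraries and 75 at 48 h, a ratio of scaled reads of 102.0 (95% exact interval for counting error alone, 17.8 to 4090.0). ERR1* was at −0.24 and 2.07 in log and 6.20 and 5.46 at 48 h. The 4 hexose transporters of the ends, HXT9*, HXT15*, HXT16* and HXT17*, all rose. Their summed log2 level went from 2.57 and 2.34 in log to 7.05 and 6.26 at 48 h. HXT15* had no read in either log library and was at least 10.4-fold higher at 48 h. Leaving out 1 library left 2 hexose transporters past the threshold at the fewest.

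Vitamin genes showed the same direction in every table. The 8 thiamine and pyridoxine genes, THI5* with its copies and the SNZ and SNO genes of pyridoxine synthesis, had a summed log2 level of 5.69 and 5.75 in log, 8.64 and 8.54 at 24 h and 9.37 and 8.97 at 48 h in wild type. All 8 rose at both ages, and the level at 48 h was 10.9-fold that in log. With quantile normalization 3 of the 8 passed at 24 h and 6 at 48 h. THI5* rose by 4.68 ± 0.37 and SNZ2* by 3.88 ± 0.26 (SE). All 8 also rose in mus81 at 48 h (summed level 8.31-fold), in the translocation table (11.2-fold) and in aged hst3 hst4 cells (2.36-fold). In hst3 hst4 this count was 1 without either aged library and 4 with quantile normalization, and in the translocation table it was 5 without the control 48 h library.

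Most genes on the iron, aryl-alcohol and resistance lists rose too. All 8 iron and siderophore genes passed the test in wild type at 48 h, with a median log2 difference of 1.08; FET4 and ZRT1, metal transporters that are not on that list, fell. ARN1, a siderophore transporter, went from 7.69 and 7.80 to 8.96 and 9.36, a difference of 1.42 ± 0.22. The 7 AAD aryl-alcohol dehydrogenase genes all rose, from AAD3* (0.68) to AAD10 (2.43 ± 0.25). Of 10 genes for arsenic and drug resistance 8 rose, among them SEO1, a permease (2.80), and DDI3* and DDI2*, cyanamide hydratases (3.11 and 2.75), and RDS1 fell (−0.55). With quantile normalization 3 AAD genes and 2 arsenic and drug genes rose at 48 h, and the median of the arsenic and drug genes at 24 h was −0.08, against 1.06 with the authors' scaling.

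The silent mating cassettes, which Sir proteins keep off, moved by less than most families. HMLALPHA2* had log2 values of 6.22 and 5.92 in log and 6.98 and 7.10 at 48 h, and HMRA1 had 6.30 and 6.13 and then 6.76 and 6.83. Of the 4 genes 3 rose at 48 h, by 0.58 to 0.97, and HMLALPHA1* (2.11 ± 0.97) did not pass. None passed with quantile normalization, and 1 did without the second log library. These genes share sequence with the expressed mating type locus, whose copy in these diploids may contribute reads, and their median at 48 h was 0.86 with the authors' scaling and −0.09 with quantile normalization. Mating type markers elsewhere, 9 genes for pheromones, their receptors, HO and the alpha regulators, were higher in 7 cases at 48 h. Their part in these results was not tested.

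The phosphate genes were the strongest falls. PHO11* and PHO12*, secreted acid phosphatases on chromosomes I and VIII, had a summed log2 level of 12.58 and 12.65 in log, 10.51 and 11.64 at 24 h and 8.91 and 8.88 at 48 h. That is a 13.2-fold lower level at 48 h than in log, and no aged library reached a log library. PHO89 and PHO84, phosphate transporters, fell by 2.69 ± 0.33 and 2.40 ± 0.34 (SE; limma, adjusted p 4.1e-06 and 2.1e-05). The zinc transporter ZRT1 fell by 2.01, the iron transporter FET4 by 1.74, the ribosome assembly gene KRR1 by 1.97 and YIL169C by 2.21. Among the other genes with the largest rises were YPS6, an aspartyl protease of the cell surface (5.08 and 4.00 in log, 8.70 and 8.55 at 48 h, difference 4.08 ± 0.33), MSC1 (3.53 ± 0.22) and HXK1*, a hexokinase (3.02 ± 0.25).

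**Figure D4:**
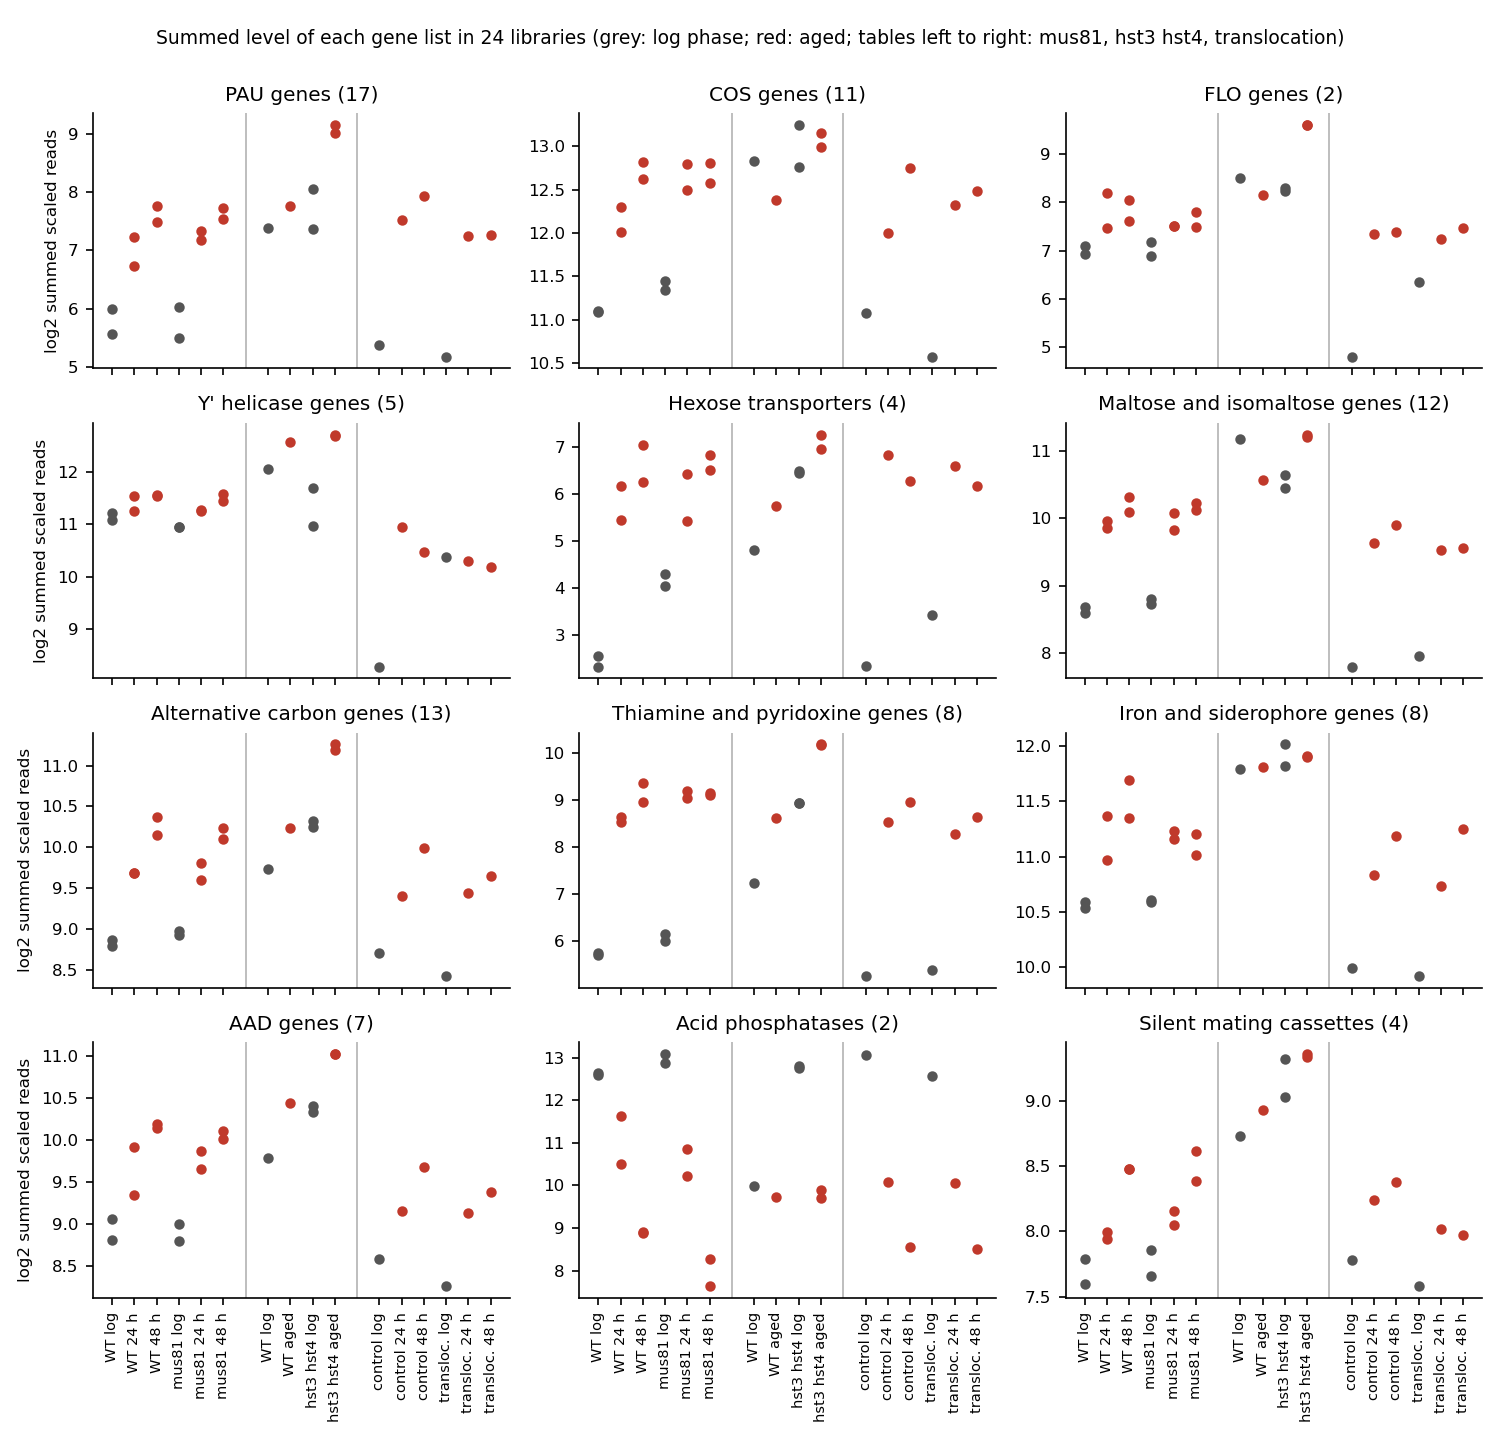
Log2 of the summed scaled reads of 12 gene lists, 1 panel each with the number of genes in brackets, in all 24 libraries; points are single libraries, grey in log phase and red in aged cells, and vertical lines part the 3 tables, which were scaled separately. In the mus81 table the thiamine and pyridoxine genes stand at 5.69 to 6.16 in log and 8.97 to 9.37 at 48 h, the acid phosphatases go down, and the control log library of the translocation table is far below the rest in the Y' panel.

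Factors that act at the ends were read from the same libraries. Of 27 silencing factors, 16 were lower (59.3%) and 3 higher (11.1%) in wild type at 48 h, against 30.1% and 33.1% of all features. By class of level, 63.2% of other genes were lower in the top class and 39.6% in the class below it. SIR2 fell by 1.20 ± 0.18 (SE; limma, adjusted p 3.92e-05) and SIR4 had a difference of −0.48, while SIR3 (0.19, adjusted p 0.233) missed the threshold. SIR1, a member at the right end of XI, went from log2 values of 6.07 and 6.35 to 7.32 and 7.07. Of 8 listed regulators of PAU genes, 1 was higher and 3 were lower. UPC2, the activator named above, fell by 1.82. MSN4 went from log2 values of 7.33 and 7.23 to 8.31 and 8.18, while MSN2 went from 8.54 and 8.17 to 7.48 and 7.45. Daughter cell markers, 12 genes that include AMN1, ASH1, BUD9 and genes of the daughter-side cell wall and septum, were lower in 11 cases at 48 h. Their summed log2 level was 14.25 to 14.59 in log and 13.08 to 13.51 at 48 h, and none was at 0. The part of these changes in the members' values was not tested.

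The second question was whether mus81 cells differed at their chromosome ends. Their members changed with age much as above. At 48 h 171 of 349 members were higher and 35 lower than in mus81 log cells (all features 30.7% and 29.5%), with a median log2 difference of 1.08 (98 higher and 56 lower with quantile normalization). At 24 h, 138 were higher and 29 lower (26.3% and 25.7%), with a median of 0.73 (77 higher and 38 lower with quantile normalization). PAU genes stood at a summed log2 level of 6.03 and 5.49 in log and 7.54 and 7.73 at 48 h, where 11 of 17 rose (5 rose and 2 fell with quantile normalization). COS genes stood at 11.35 and 11.45 in log and 12.58 and 12.81 at 48 h, where 9 rose and COS10 fell. The right end of X had the highest median (2.30) and the left end of XIII the lowest (0.05). Acid phosphatases went from 12.88 and 13.08 to 8.27 and 7.64.

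Set directly against wild type, few members differed. In log cells 2 members were higher in mus81 and none lower, at 0.300% and 0.105% over all features, and 32 had an unadjusted p under 0.05. Both lie next to each other on the right end of XIV. HXT17*, a hexose transporter, had log2 values of 1.35 and 0.75 in wild type and 3.04 and 3.71 in mus81, a difference of 2.33 ± 0.41 (SE; limma, adjusted p 0.0179). YNR073C*, a mannitol dehydrogenase gene, had 2.57 and 1.75 against 4.18 and 3.81, a difference of 1.84 ± 0.32 (adjusted p 0.0179). Neither passed with quantile normalization or in a test on recovered reads.

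At 48 h REE1 was the 1 member that passed the test between the genotypes. Its log2 values were 9.13 and 9.32 in wild type and 8.58 and 8.35 in mus81, a difference of −0.76 ± 0.14 (SE; limma, adjusted p 0.0433). The call was lost when any of the 4 libraries was left out (differences of −0.64 to −0.88), without a variance trend, with the A number of the labels as a block and when only the groups compared were fitted. All features gave 0.0300% higher and 0.210% lower, and 18 members had an unadjusted p under 0.05. No member's change from log to 48 h differed by limma between mus81 and wild type (all features 0% and 0.120%), where 30 members had an unadjusted p under 0.05. The daughter markers stood at 12.67 to 12.90 in mus81 at 48 h against 13.08 to 13.51 in wild type, and their part was not tested.

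The third question was how the ends behaved in cells that lack HST3 and HST4. The histone mark that these enzymes remove was not measured here. With age, 135 of the 338 members tested in hst3 hst4 cells were higher and 35 lower, with 28.6% and 23.6% over all features (81 and 44 with quantile normalization). The members' median log2 difference was 0.60 and that of all features 0.11. Leaving out the first aged hst3 hst4 library left 69 calls in all and leaving out the second left 75, with a lone library assumed to vary like the others. By distance, the medians were 0.74, 0.69, 0.78, 0.77 and 0.29 in the 5 bins of 5 kb from the end inwards.

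Few COS genes passed the test with age in this strain, and their count rests on single libraries. The summed COS level was already high in hst3 hst4 log cells, at 12.76 and 13.24, and was 13.15 and 12.99 in aged cells, so that the groups overlapped. Of 11 COS genes 2 rose, with a median of 0.09. Without the second hst3 hst4 log library 8 rose (median 0.36), without the first 2 rose and 3 fell, and without either aged library none passed. In the wild type of this table COS stood at 12.83 in log and 12.38 in aged cells. PAU genes went from 7.36 and 8.05 to 9.16 and 9.02, 2.61-fold, and 10 of 17 rose. Without the first or the second aged library 3 or 5 PAU genes rose, without the second log library 16, and with quantile normalization 6.

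The Y' and FLO genes rose in hst3 hst4 with age. All 5 Y' helicase genes passed, with a summed level of 11.68 and 10.97 in log and 12.68 and 12.70 in aged cells (2.59-fold). These copies are not separate results. In the single wild-type libraries of this table the level also went up, from 12.05 in log to 12.56 in aged cells. On this log2 scale hst3 hst4 lay 0.72 below wild type in log and 0.14 above it in aged cells. FLO1* went from 7.60 and 7.22 to 9.07 and 9.03, a difference of 1.64 ± 0.17 (SE; limma, adjusted p 0.0021), and both FLO genes rose (1 without either aged library). YIL169C rose by 1.79 ± 0.31, from 8.69 and 7.76 to 10.02 and 10.01, while it fell in the aged cells of wild type, mus81 and the translocation table. PHO11* and PHO12* fell by 2.98 and 2.96, PHO84 by 1.45, DIA1 by 1.57, the serine deaminase gene CHA1 by 1.42 and the hexokinase gene HXK2 by 1.39. The phosphate transporter PHO89 did not fall with them. Of the 27 silencing factors 7 were higher (25.9%) and 3 lower (11.1%) with age in hst3 hst4, against 28.6% and 23.6% of all features. Their median log2 difference was 0.04. Among them SIR2 was at a log2 difference of 0.50 that missed the threshold (limma, adjusted p 0.0706), and SIR4 rose by 0.53.

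The 4 comparisons of old with log cells (wild type and mus81 at 48 h, the translocation table at 48 h and hst3 hst4 aged) share no library. Of 337 members tested in all 4, 79 were higher (23.4%) and 14 lower (4.15%) in each, against 12.1% and 10.1% of all 6604 features tested in all 4. The 79 hold all 8 vitamin genes, 7 PAU genes (PAU12*, PAU15*, PAU16*, PAU19*, PAU21*, PAU22* and PAU24*), COS5*, COS7*, FLO1*, JEN1 and YPS6. The 14 hold PHO11*, PHO12*, PHO84, ZRT1, FET4, KRR1 and HXK2. A further 7 members rose in wild type at 48 h and fell in aged hst3 hst4 cells, namely ARR1, COX14, DIA1, ENB1, MAL13, SFT2 and YBL107C, which is 2.07% of 338 members against 1.74% of all features; whether their change differed was not tested between these tables.

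Against the wild type of the same table, 44 members were higher and 15 lower in hst3 hst4 log cells, with 8.73% and 8.36% over all features. Without the first hst3 hst4 log library the counts were 107 and 79, without the second 92 and 66, and without a variance trend 33 and 2. These comparisons rest on 1 wild-type library per age, assumed to vary like the hst3 hst4 libraries. Of the hst3 hst4 libraries, only the first at each age shares the lane label of the wild type. The wild-type log library stood apart in several members from the wild-type log libraries of the mus81 table: PHO11* was at 8.97 there and at 11.51 and 11.57 in the mus81 table, and MSC1 at 11.06 against 6.38 and 5.96, on scales set separately. The direction of these differences therefore rests on that library. PHO89 was at 6.47 in wild type and 9.64 and 9.92 in hst3 hst4 log cells, a difference of 3.31 ± 0.17 (SE; limma, adjusted p 0.0028). PHO11* (2.82), PHO12* (2.74) and PHO84 (2.54) were higher too. MAL31 (−1.89), OPT2 (−1.84), HXK1* (−1.53) and MSC1 (−1.50) were lower.

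In aged cells 69 members were higher in hst3 hst4 than in the lone wild-type library and 6 were lower, with 8.44% and 8.48% over all features. The median log2 difference over the members was 0.59, against 0.02 over all features. No member stayed past the threshold when either hst3 hst4 aged library was left out. The right end of I had the highest median (1.79) and the right end of VI the lowest (−0.23). PHO89 was higher by 2.69 in aged hst3 hst4 cells, beside 3.31 in log cells. Between the single wild-type libraries it differed by 1.525, aged minus log. FLO1* at the right end of I was at 7.26 in wild type and 9.07 and 9.03 in hst3 hst4, a difference of 1.79 ± 0.21 (SE; limma, adjusted p 0.016). IMD1*, an inosine monophosphate dehydrogenase copy at that same end, was at 6.39 against 8.60 and 8.62 (2.22 ± 0.36). CHA1 was lower, at 11.56 against 9.64 and 9.56 (−1.96 ± 0.12).

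The change with age itself was then compared between hst3 hst4 and the wild type of that table, a comparison added after the data had been seen. It differed in 9 members in the higher and 10 in the lower direction, with 4.29% and 6.03% over all features, so that the members' shares (2.66% and 2.96%) lay below those of all features. The calls numbered 172 and 153 without the first and the second hst3 hst4 log library, and 0 without either aged library or without a variance trend. PHO84 rose from 11.10 to 12.95 between the single wild-type libraries and fell from 13.63 and 13.66 to 12.28 and 12.11 in hst3 hst4, a difference of −3.29 ± 0.20 (SE; limma, adjusted p 0.017). MAL31 went down in the wild-type libraries, from 9.22 to 8.34, and up in hst3 hst4, from 7.30 and 7.36 to 8.54 and 8.46 (2.06 ± 0.21). In the wild-type libraries of this table, the members' median aged minus log difference was 0.32, against 0.02 over all features. There 54 of 350 members were past 2-fold higher and 16 past 2-fold lower, with no test on a single pair. Daughter markers were lower in hst3 hst4 than in wild type in 11 of 12 cases in log and 8 in aged cells, with summed levels of 15.56 in wild-type log and 13.94 to 14.18 in hst3 hst4 log. Their part was not tested.

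**Figure D5:**
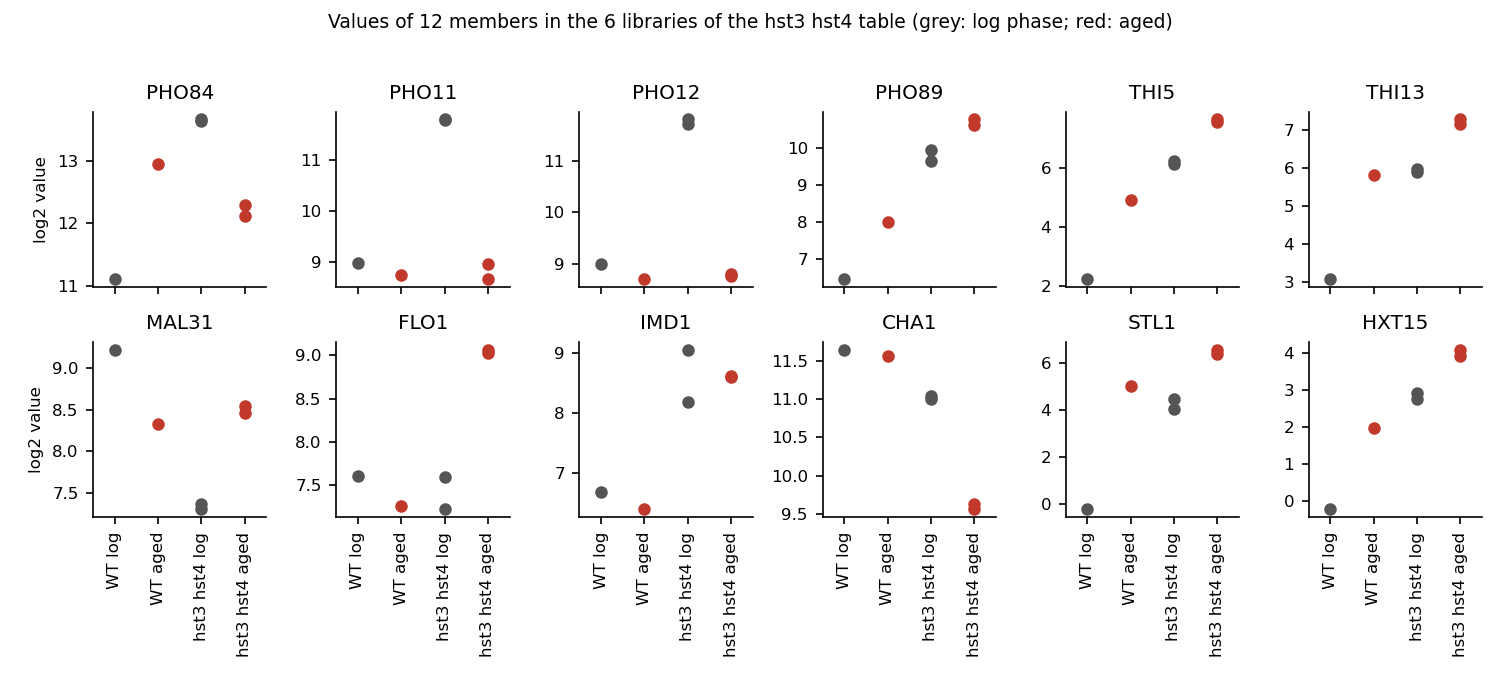
Log2 values of 12 members in the 6 libraries of the hst3 hst4 table; each point is 1 library, grey in log phase and red in aged cells, and vertical scales differ between panels. PHO84 goes up with age in wild type (11.10 to 12.95) and down in hst3 hst4, and FLO1 stands above 9 only in the 2 aged hst3 hst4 libraries.

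The last question was whether the ends of the other chromosomes changed in cells with the XII<>V translocation. With 1 library per strain and age, both strains were fitted together, and an age effect that differs between the strains counts as error. At 48 h 152 of 347 members were higher and 19 lower than in log, with 23.1% and 17.2% over all features and a median log2 difference of 1.12 (72 higher and 26 lower with quantile normalization). Without the control 48 h library the calls numbered 60, and without the translocation 48 h library 90. YPS6 had log2 values of 4.28 in control log and 4.47 in translocation log, and 8.50 and 8.21 at 48 h (3.98 ± 0.29, SE). PHO12* fell by 4.31 ± 0.23. COS genes went from 11.08 to 12.75 in the control and from 10.57 to 12.48 in the translocation strain, and 9 of 11 rose (5 without the control 48 h library).

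Between translocation and control no member passed in either direction by limma (all features 0.0150% higher and 0% lower), and 6 members had an unadjusted p under 0.05. The Y' helicase level was 8.28 in control log, 10.94 and 10.46 in the control at 24 h and 48 h, and 10.36, 10.29 and 10.18 in the translocation strain. The control log library thus stood far below the other 5 for these genes, and none of the 5 Y' genes passed the test with age here; all 5 did without either 24 h library or without the translocation log library. FLO1* showed a like pattern in the control, at 4.08 in log, 6.52 at 24 h and 6.45 at 48 h, against 5.66, 6.58 and 6.57 in the translocation strain. Of the 12 daughter markers 1 was lower at 48 h in this table (8.33%, against 17.2% of all features), with a median log2 difference of −0.45. Their summed levels were 13.45 to 13.46 in log and 13.05 to 13.21 at 48 h. Their part in the members' values was not tested.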

How the data were processed

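Poly(A)+ directional RNA-seq libraries were made from log and aged cells. The submitters' processing notes name Trim Galore (0.6.6), HISAT2 (2.1.0) and the build R64. The counting program, the treatment of reads from near-identical copies and the scaling step were not given in the sources used here. The deposited values are log2 of scaled reads per gene. A gene without reads carries the value of 0.9 reads, and whole reads were recovered for 100% of values under 200 reads, within 0.02. All 24 libraries were used, within their own table.

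Features above the value for no reads in at least 2 libraries of a table were tested (6669, 6613 and 6651). Each table was fitted over all its groups with limma 3.58.1 (R 4.3.3; moderated test with a variance trend, two-sided), with Benjamini-Hochberg adjustment over all features and 0.05 as the threshold. For the translocation table the model had a term for strain and one for age, without interaction. List levels are log2 of summed scaled values. Members were marked with an asterisk if over 30% of their sequence lay in stretches of 50 or more bases found elsewhere in R64. Members that overlap another gene on the same strand were marked too. Motifs were sought in 500 bases before start codons. Dubious frames inside a gene of the opposite strand had a median of 2.96% of that gene's reads per kb (71 pairs).

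Genes were named where they had the largest rises or falls among called members above the 25th percentile of level whose libraries did not overlap between groups, or were on a gene list. The genes listed for single ends, the members called in several strains and YCR099C to YCR100C as neighbours were named after their values were seen. Members and lists were chosen with earlier results of these data known. Alternatives were other scalings (median, quantile), filters on low values, no variance trend, voom on recovered reads, blocks and leaving out libraries. The comparison of the change with age between hst3 hst4 and wild type was added after seeing the data. Tables and figures used Python 3.11.15, numpy 2.4.6, pandas 2.3.3 and matplotlib 3.10.9.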

Additional observations from a re-analysis of the deposited data

Results flagged for a closer look

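The change with age differed between hst3 hst4 and wild type in 19 members, by a test of that difference in limma that rests on single wild-type libraries. That is 2.66% of members higher and 2.96% lower, against 4.29% and 6.03% of all features. The values are the log2 change in hst3 hst4 minus that in wild type. It was lower for the phosphate genes PHO84 (−3.29), PHO11* (−2.75) and PHO12* (−2.66), for the symporter STL1 (−3.04) and for ZRT1 (−1.46), CHA1 (−1.34), KRR1 (−1.23), YIR035C (−1.08), HXK2 (−1.01) and EFM1 (−0.99). It was higher for the maltose genes MPH2* (2.71), MAL31 (2.06) and MAL33 (1.51), for YNR071C (2.05), FLO1* (1.99), YCR100C* (1.80), YFL054C (1.69), MSC1 (1.65) and SRO77 (1.13). STL1 had no read in the wild-type log library. With no variance trend, none of the 19 passed, and 0 passed when either hst3 hst4 aged library was left out, while 172 and 153 members passed without the first and the second hst3 hst4 log library.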

How the results depend on the processing

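Counts here are of members called in either direction. With the features below the 25th percentile of level left out, fewer members could be tested. The calls then numbered 77 (wild type 24 h), 120 (wild type 48 h), 91 (mus81 24 h), 115 (mus81 48 h), 84 (hst3 hst4 with age), 32 and 26 (hst3 hst4 against wild type, log and aged), 73 (translocation table) and 0 (mus81 against wild type, log). Quantile normalization gave 97 for wild type at 24 h, 98 for the translocation table, 40 for hst3 hst4 against wild type aged, and 0 and 2 for mus81 against wild type in log and at 48 h. Without a variance trend these 2 mus81 counts were 1 and 0, hst3 hst4 against wild type in log gave 35, and the change with age gave 0. Voom gave 0 and 2 for the mus81 counts, and fitting only the groups compared gave 1 and 0. The median of all features at 48 h in wild type was 0.15 as scaled by the authors, 0.03 after median centring and −0.11 after quantile normalization, and member changes are best read against it; the cause of these shifts was not tested.

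Leaving out 1 library gave 123 to 168 calls for wild type at 24 h, 186 to 212 at 48 h, 133 to 143 and 177 to 198 for mus81, 0 to 2 and 0 to 1 for mus81 against wild type, and 0 to 2 for the difference in change. It gave 69 to 223 for hst3 hst4 with age (69 and 75 without the first and second aged library), 158 to 186 against wild type in log (186 and 158 without the first and second log library), 0 to 0 in aged cells and 0 to 172 for the change with age (172 and 153 without a log library). In the translocation table it gave 60 to 219 with age and 0 to 13 between strains (13 without either 24 h library).

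List medians that changed sign did so with quantile normalization: arsenic and drug genes in wild type at 24 h (−0.08) and hst3 hst4 against wild type aged (−0.006), FLO genes in mus81 (−0.145 at 24 h, −0.139 at 48 h), PAU genes in wild type at 24 h (−0.109) and hst3 hst4 against wild type in log (−0.182), and silent cassettes in wild type (−0.139 and −0.088), mus81 at 24 h (−0.316) and the translocation table (−0.006). Of the single-gene results 1343 kept direction and side of the threshold, 70 lost the threshold and 0 changed sign.

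Replicate numbers did not pair the libraries: over 15 pairs the correlation of deviations ran from −0.136 to 0.563, and for the A numbers of the labels from −0.320 to 0.563. With the title number as a block 231 members were called in wild type at 48 h, 168 at 24 h, 209 and 168 in mus81, 3, 1 and 0 between the genotypes, and 170 in hst3 hst4 with age. In the hst3 hst4 table the title number and the lane label part the libraries alike. With the A number as a block 0 were called between the genotypes at 48 h. Depth limits the PAU, hexose transporter and dubious genes, many of which had under 10 reads in log cells.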
